A study of Mus musculus with 2 samples.

Results

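The 10 heat shock chaperone genes described here are Hspa1a, Hspa1b, Hsph1, Dnajb1, Hspb1, Hspa8, Hsp90aa1, Hspe1, Hspd1 and Hspa5, out of 32285 genes in the count matrices. They were picked by gene symbol. All 10 were among the 17564 genes with at least 50 unique molecular identifiers (UMIs, the tags that mark single captured RNA molecules) in both libraries together. Dorsal skin came from male C3H/HeN mice, 7 weeks old at the start and 9 weeks old at harvest. The control group received vehicle, and the TP group received 0.5 mg of testosterone propionate per day under the skin, a model of androgenetic alopecia (AGA). Skin of 15 mice per group was pooled, digested with collagenase D, freed of red blood cells, passed over Percoll and made into 1 droplet library that reads the 3′ end of each transcript. The group that also received a CXCL12 antibody was not analysed here. Because each group is 1 pooled library, no difference between animals could be measured and no test was possible. Every interval below is a 95% counting interval.

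After filtering, 39076 control cells and 18542 TP cells were kept, with 107871696 and 136331248 UMIs. The libraries differed in depth, with medians of 2056 UMIs per cell in control and 4932 in TP. Barcodes over 10% mitochondrial UMIs made up 7.58% of the control library and 22.6% of the TP library, and 303 barcodes occurred in both. Levels are given as UMIs per 1000000 UMIs (CPM), and ratios are TP over control. With a TMM factor of 0.835 between the libraries, every ratio over all kept cells would be larger by its inverse, and the median log2 ratio of all tested genes would move from -0.24 to 0.02. Of 30 clusters, 24 took a name from marker genes and formed 15 classes, and the 6 unnamed clusters held 35.9% of control cells and 28.3% of TP cells. Where ratios are given with the class shares of 1 library, the shares are those of all 30 clusters, named and unnamed, not of the 15 classes. Some names rest on weaker ground. The dermal sheath cup-like cluster, led by Dkk2 and Gpc5, and 1 of 3 inner root sheath-like clusters had no own marker among their 10 leading genes. In control the sheath cup-like cluster had 1817 CPM of the 8 sheath cup markers, against 13939 CPM in smooth muscle and pericyte-like cells, and 7197 CPM of the 12 dermal papilla markers, and no cluster took that name when cells were grouped more coarsely. The lymphocyte-like cluster also carried Cd74 and other MHC class II genes. Its 11 myeloid markers summed to 4377 CPM in control and 14094 CPM in TP, and its 9 lymphocyte markers to 4058 and 2256 CPM.

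Chaperones bind proteins that are not yet folded or have lost their fold, and they use ATP or co-chaperones to hold, refold or hand them on. Heat shock factor binds repeats of a short GAA unit in promoters of the inducible chaperone genes after heat, oxidative or mechanical stress. The endoplasmic reticulum has its own chaperones, which the unfolded protein response induces through other promoter elements. In skin, the small heat shock protein Hspb1 is known as an abundant protein of differentiating keratinocytes.

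Promoter sequence is shown for members that carry at least 1 of the letter strings below, and some members carry several. The matches of Hspd1 are the same bases as those of Hspe1, so Hspd1 has no line of its own. The sequences are RefSeq sequence of build GRCm38.p6, 5′ to 3′ on the strand of the gene. Of the 10 members, 8 had a promoter window in the RefSeq table, and Hspa8 and Hsp90aa1 had none. Both strands of the 250 bases before each start were searched. The letters searched were GAANNTTC and TTCNNGAA, which are pairs of opposed heat shock units, GAANNTTCNNGAA, which is 3 units in a row and contains both pairs, CCAAT, and the endoplasmic reticulum stress element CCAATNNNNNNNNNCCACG, which contains CCAAT. Capitals mark the matches.
Hspa1a, chr17:34972212-34972271, minus strand: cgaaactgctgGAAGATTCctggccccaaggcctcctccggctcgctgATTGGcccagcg
Hspa1b, chr17:34959294-34959353, minus strand: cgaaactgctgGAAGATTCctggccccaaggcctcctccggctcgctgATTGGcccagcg
Hspb1, chr5:135887794-135887837, plus strand: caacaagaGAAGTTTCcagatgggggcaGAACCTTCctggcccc
Hsph1, chr5:149636351-149636380, minus strand: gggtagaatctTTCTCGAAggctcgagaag
Hspe1, chr1:55088053-55088082, plus strand: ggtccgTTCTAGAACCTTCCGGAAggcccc
Dnajb1, chr8:83608013-83608039, plus strand: agagggttgcgATTGGctggatccgct
Hspa5, chr2:34771985-34772050, plus strand: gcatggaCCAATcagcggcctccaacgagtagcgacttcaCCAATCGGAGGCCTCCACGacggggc

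The 60 bases printed for Hspa1a and Hspa1b differed at 0 positions, and their whole windows of 300 bases differed at 4. GAANNTTC was found in 5 members (Hspa1a, Hspa1b, Hspb1, Hspe1, Hspd1) and in 6.69% of all 32851 promoter windows. TTCNNGAA was found in 3 members (Hsph1, Hspe1, Hspd1) and in 7.17% of all windows. The 3 units in a row were found in Hspe1 and Hspd1 and in 0.466% of all windows. In these genes, which lie head to head, they are the same 18 bases at chr1:55088059-55088076. The bases lie before the Hspe1 start at 55088148 and before 1 of the Hspd1 starts, at 55087932. They are inside the span of Hspd1, and the window of its other start, at 55088243, held no match. The endoplasmic reticulum stress element was found in Hspa5 and in 0.113% of all windows. CCAAT alone was found in 5 members and in 33.8% of all windows, and it was the only one of these letter strings in the Dnajb1 window. Windows without a match hold none of these letters, and nothing further follows from that.

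Together the members took 0.381% of all UMIs in control and 0.538% in TP, and 0.299% and 0.331% without Hspb1. Over all kept cells 5 of the 10 were higher in TP (Hspa1b, Dnajb1, Hspb1, Hspa8 and Hspa5), against 34.3% of all tested genes. Dnajb1 and Hspb1 were at least 2-fold higher, 2 of 10 against 7.89% of all tested genes. At a limit of 1.5-fold Hspa5 joined them, 3 of 10 against 13.7%. None was at least 2-fold lower, against 10.6%. The members thus lay on both sides of 1, and they are described below by compartment and role.

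Hspa1a and Hspa1b are near-identical neighbours on chromosome 17 that encode the stress-induced cytosolic ATPase chaperone. Hspa1a (ENSMUSG00000091971, chr17:34969359-34972156) had 230 CPM in control and 173 CPM in TP, a ratio of 0.751 (0.738 to 0.764). Hspa1b (ENSMUSG00000090877, chr17:34956429-34959238) had 184 CPM in control and 190 CPM in TP, a ratio of 1.04 (1.02 to 1.05). Only Hspa1a was lower beyond counting error, and the small excess of Hspa1b reversed to 0.970 with control's class shares in both libraries and to 0.971 in cells of 2000 to 5000 UMIs. Since reads of such similar genes can be split between them, their sum was also taken, which came to 414 CPM for control and 363 CPM for TP, a ratio of 0.877 (0.866 to 0.889). None of the 90-base windows in the last 500 bases of either transcript was shared with another gene.

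Hsph1 and Dnajb1 are helpers of that chaperone, a nucleotide exchange factor and a J-domain co-chaperone that delivers clients. Hsph1 (ENSMUSG00000029657, chr5:149616843-149636498) had 120 CPM in control and 99.1 CPM in TP, a ratio of 0.827 (0.808 to 0.848), which turned to 1.08 with control's class shares in both libraries. Dnajb1 (ENSMUSG00000005483, chr8:83608175-83612653) had 102 CPM in control and 276 CPM in TP, a ratio of 2.71 (2.65 to 2.77). The Hsph1 ratio was also 1.14 with TP class shares, 0.991 with the TMM factor and 0.747 in cells of 2000 to 5000 UMIs, so no direction is given for it. Dnajb1 had the highest ratio of the 10 members. With control's class shares in both libraries its ratio was 2.11, and it was then the 1 member at least 2-fold higher, against 3.39% of all tested genes. In cells of 2000 to 5000 UMIs, which come closer in depth, 4 members were higher in TP against 39.3% of genes, and Dnajb1 with 2.18 was the 1 at least 2-fold higher against 9.02%. With the TMM factor its ratio was 3.25.

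Hspb1 is a small heat shock protein that holds unfolded clients without ATP. It is located at chr5:135887919-135889563 (ENSMUSG00000004951). Control had 821 CPM of it and TP 2075 CPM, a ratio of 2.53 (2.51 to 2.55). The ratio was 1.45 when both libraries were given control's class shares and 1.36 with those of TP, nearer to 1 than the ratio over all cells as measured. IFE suprabasal-like cells (differentiating cells of the interfollicular epidermis) held 27.4% of the Hspb1 UMIs in control and 56.9% in TP. Of 90-base windows in the last 500 bases of the transcript, 50.1% also occurred in the pseudogene Hsp25-ps1, and how the authors' counter split such reads was not tested.

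Hspa8, the constitutive cytosolic relative of Hspa1a, and Hsp90aa1, which matures kinases and steroid receptors, serve unstressed cells too. Hspa8 (ENSMUSG00000015656, chr9:40801276-40805202) had 567 CPM in control and 719 CPM in TP, a ratio of 1.27 (1.26 to 1.28), and 1.03 in cells of 2000 to 5000 UMIs. Hsp90aa1 (ENSMUSG00000021270, chr12:110691036-110696395) had 657 CPM in control and 556 CPM in TP, a ratio of 0.845 (0.837 to 0.854). Other settings put the Hsp90aa1 ratio on both sides of 1, with 1.01 for the TMM factor, 0.999 for control's class shares, 0.779 in cells thinned to 1000 UMIs and 0.720 in cells of 2000 to 5000 UMIs, so no direction is given for it. For Hspa8, 79.8% of the 90-base windows in the last 500 bases recur in 9 processed copies elsewhere in the genome.

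Hspe1 and Hspd1 encode the lid and the barrel of the mitochondrial chaperonin. Hspe1 (ENSMUSG00000073676, chr1:55088148-55091317) had 284 CPM in control and 222 CPM in TP, a ratio of 0.780 (0.768 to 0.793). Hspd1 (ENSMUSG00000025980, chr1:55077833-55088243) had 423 CPM in control and 306 CPM in TP, a ratio of 0.724 (0.714 to 0.734). The settings moved both ratios either way. In cells of 2000 to 5000 UMIs they were 0.578 for Hspe1 and 0.547 for Hspd1, and in cells thinned to 1000 UMIs 0.713 and 0.631. With control's class shares the ratio came to 0.95 for either gene, and among cells of 8000 UMIs and over it was 0.971 for Hspe1 and 1.02 for Hspd1.

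Hspa5, known as BiP, is the main ATPase chaperone of the endoplasmic reticulum and a sensor of its load. At chr2:34772090-34776529 (ENSMUSG00000026864) it had 420 CPM in control and 768 CPM in TP, a ratio of 1.83 (1.81 to 1.85). The ratio was 1.80 with control's class shares and 1.84 with those of TP, close to the value as measured. It was 1.35 in cells of 2000 to 5000 UMIs and 2.19 with the TMM factor, with which 3 of 10 members were at least 2-fold higher against 11.1% of all tested genes.

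**Figure D1:**
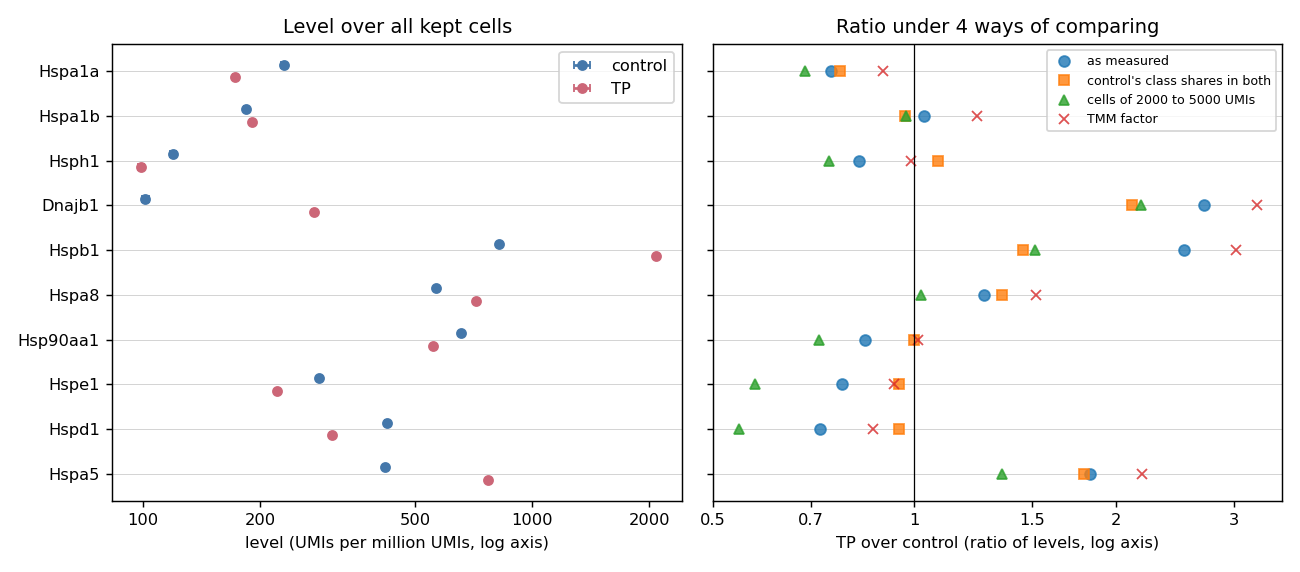
Left, level of each chaperone gene over all kept cells in UMIs per 1000000 UMIs on a log axis, with blue points for control, red points for TP and 95% counting intervals that are mostly smaller than the points; right, the ratio of TP over control on a log axis as measured, with control's class shares in both libraries, in cells of 2000 to 5000 UMIs and with the TMM factor. Dnajb1, at 2.71, stays above 2 under all 4, Hspb1 spans 1.45 to 3.03 and Hsp90aa1 lies on both sides of 1.

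Within classes, each of the 10 members was measured in all 15. In control, Hspa1a was highest in dermal sheath cup-like cells, with 467 CPM, and lowest in melanocyte-like cells, with 90.6 CPM, a spread of 5.15-fold. Its neighbour Hspa1b also had its lowest level in melanocyte-like cells, 63.9 CPM, and its highest in endothelial-like cells, 326 CPM, whose counting interval overlapped that of the next class, dermal sheath cup-like cells with 291 CPM. Hsph1 was highest in endothelial-like cells as well, with 296 CPM. Hspb1 had the widest spread, 18.0-fold, from 225 CPM in dermal papilla-like cells to 4039 CPM in IFE suprabasal-like cells, and endothelial-like cells came next with 2285 CPM. Hspa8 had the narrowest, 2.07-fold, from 354 CPM in IFE suprabasal-like cells to 730 CPM in endothelial-like cells. The growing lower hair follicle led for a further group. Hsp90aa1 and Hspe1 were highest in germinative layer-like cells, with 867 and 382 CPM, and Hspd1 was highest in hair cortex-like cells, with 576 CPM. IFE suprabasal-like cells had the lowest control levels of Hsph1, Hspa8, Hsp90aa1, Hspe1 and Hspd1, the reverse of Hspb1. For Hsph1, Hspe1 and Hspd1 the interval there overlapped that of the next class, which was IFE basal-like cells with 55.9 CPM of Hsph1 and myeloid-like cells with 123 CPM of Hspe1 and 164 CPM of Hspd1. Hspa5 was highest in dermal papilla-like cells, with 758 CPM, and lowest in smooth muscle and pericyte-like cells, with 314 CPM. The highest levels of Hspa8, Hsp90aa1, Hspe1 and Hspd1 among all 30 clusters were in unnamed cluster 4, whose leading genes are histone and other cell division genes. There Hsp90aa1 had 1319 CPM in control and 1559 CPM in TP, and Hspd1 had 729 and 821 CPM.

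**Figure D2:**
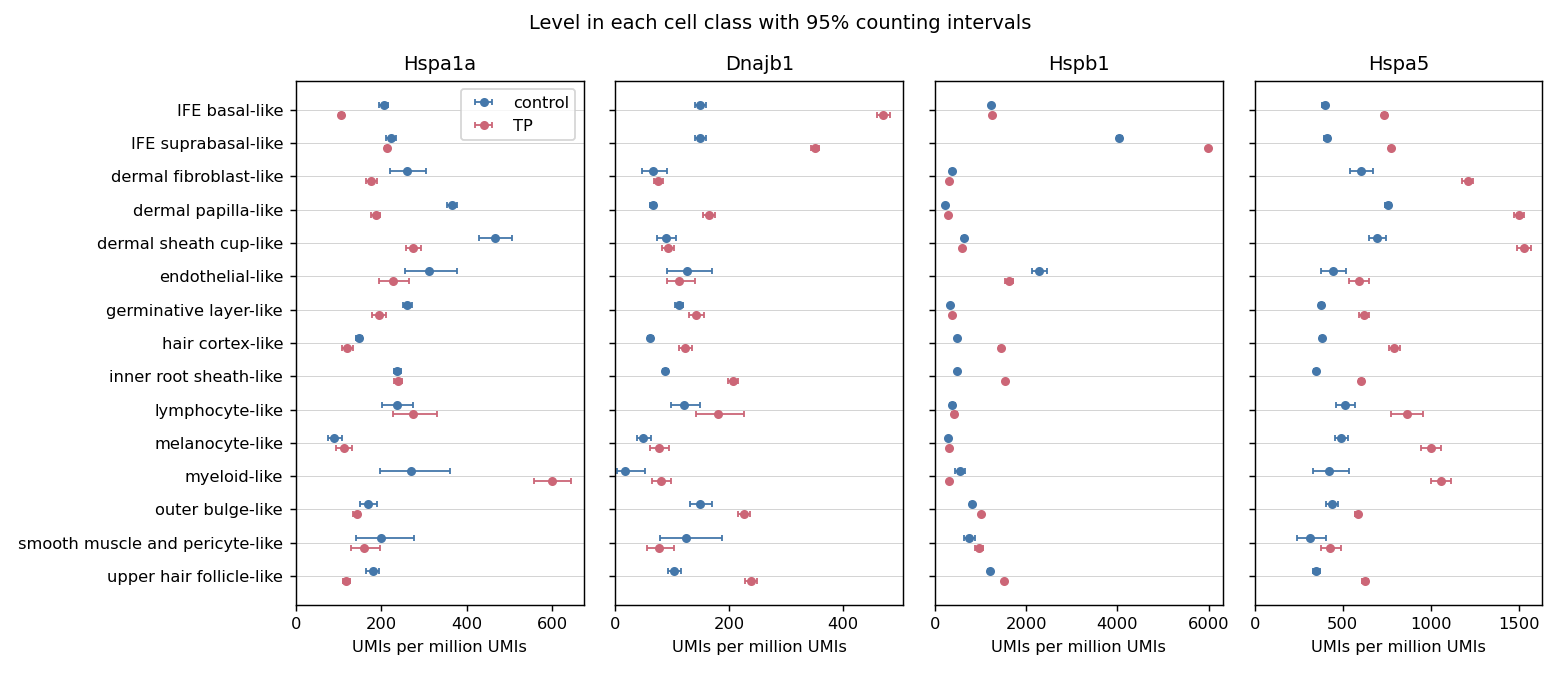
Level of Hspa1a, Dnajb1, Hspb1 and Hspa5 in each of the 15 named classes, in UMIs per 1000000 UMIs of the class; blue points are control, red points are TP, and bars are 95% counting intervals. Hspa5 is higher in TP in every class, Hspb1 peaks in IFE suprabasal-like cells at 4039 CPM in control and 5991 CPM in TP, and Hspa1a is lower in TP in dermal papilla-like cells and higher in myeloid-like cells.

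Markers of other cells moved between the libraries in most classes. The 10 inner root sheath markers had a lower sum in TP in all 14 other named classes, with ratios of 0.113 to 0.543, and the 10 IFE suprabasal markers a higher sum in 12 of 14, with ratios of 0.585 to 5.27. Their part in the class ratios below was not tested.

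Hspa5 and Hspa8 were higher in TP in all 15 classes, as were 2.9% of the 2210 genes with at least 50 UMIs in every class. With TMM factors set within each class that share of genes was 9.82%, and both members were again higher in all 15. With cells thinned to 1000 UMIs Hspa8 had 0.958 in hair cortex-like cells and 1.00 in endothelial-like cells. The interval lay above 1 in 15 classes for Hspa5 and in 14 for Hspa8. Dnajb1 was higher in 13, as were 11.6% of the same genes in at least 13. Over the 30 clusters, which hold the cells of these classes and the unnamed cells, Hspa5 was higher in 30, Hspa8 in 29 and Dnajb1 in 28. The share of all genes higher in as many clusters was not measured. At the other end, Hspa1a and Hspd1 were lower in 11 of 15 classes, as were 45.7% of the same genes in at least 11, so their count was no larger than the common run of genes. Hspa1b was higher in 8 classes and lower in the rest, Hsph1 was higher in 10 and Hspe1 in 5. Hsp90aa1 was higher in 6 classes, and in 11 with TMM factors. For the class counts of Hspa1b, Hsph1, Hspe1 and Hsp90aa1 the share of all genes was not measured either. Of the 150 pairs of a member and a class, 16 were at least 2-fold higher in TP, against 3.7% of all gene and class pairs, and 1 was at least 2-fold lower, against 6.08%.

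**Figure D3:**
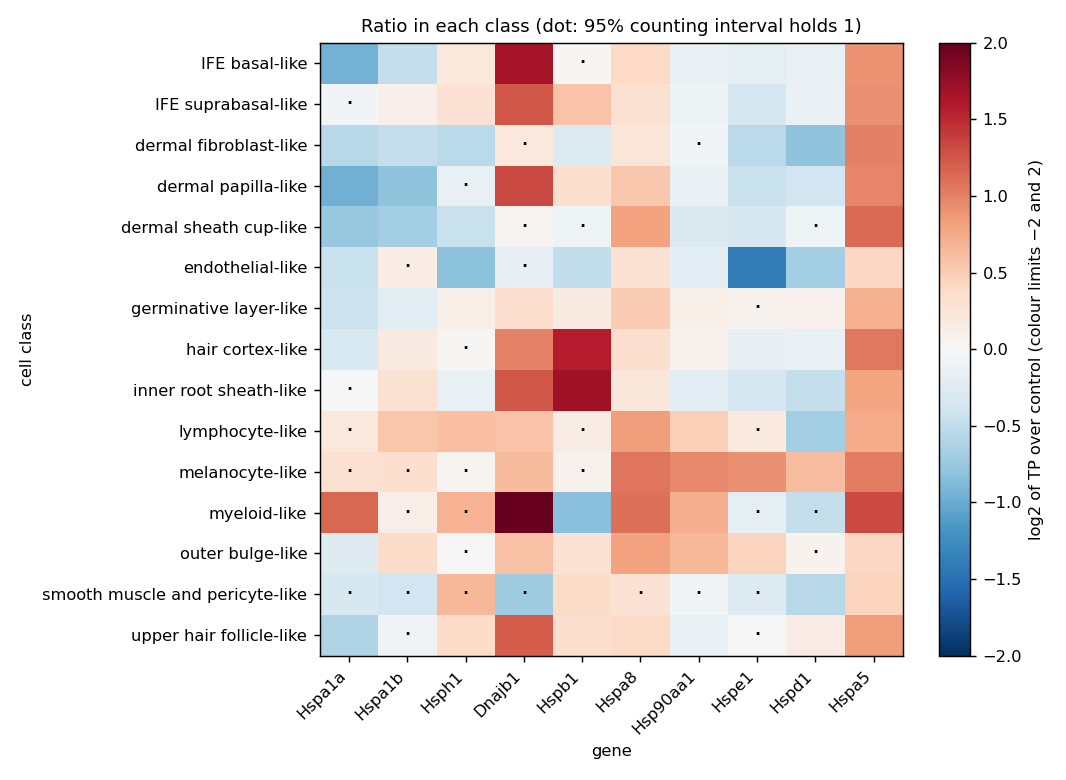
Ratio of TP over control for each chaperone gene (columns) in each named class (rows) as log2, in red where TP is higher and blue where it is lower, with colours ending 2 log2 units either side of 0; a dot marks a 95% counting interval that holds a ratio of 1. The Hspa5 and Hspa8 columns are red throughout, the Dnajb1 column is deepest in IFE basal-like and myeloid-like cells, and the darkest blue cell is Hspe1 in endothelial-like cells, at a ratio of 0.383.

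For Hspa5, dermal sheath cup-like, papilla-like and fibroblast-like cells had the highest TP levels, while smooth muscle and pericyte-like cells had the lowest, 429 CPM. Dermal sheath cup-like cells had 697 CPM in control and 1525 CPM in TP, a ratio of 2.19 (2.04 to 2.36). Dermal papilla-like cells had 758 CPM and 1498 CPM, a ratio of 1.98 (1.92 to 2.04). These cells are the signalling core at the base of the follicle, and in control most of them (2164 of 3794) lay in cluster 8, while in TP most (519 of 1025) lay in cluster 15. Within these clusters the Hspa5 ratio was 2.36 in cluster 8 and 1.67 in cluster 15. Dermal fibroblast-like cells had 602 CPM and 1208 CPM, a ratio of 2.01 (1.80 to 2.25). The smallest ratios were those of endothelial-like cells, 1.33 (1.11 to 1.61), and outer bulge-like cells, 1.34 (1.23 to 1.45), so no class lay below 1. In sheath cup-like cells 5.18% of tested genes were at least 2-fold higher, and in fibroblast-like cells 3.56%. Hspa5 was at least 2-fold higher in 5 classes, the others being hair cortex-like, melanocyte-like and myeloid-like cells. The last had the highest ratio, 2.49 (1.97 to 3.21), and 2.22 in thinned cells. With cells thinned to 1000 UMIs the ratios in fibroblast-like, sheath cup-like, cortex-like and melanocyte-like cells were 1.68, 1.91, 1.66 and 1.92.

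Dnajb1 was at least 2-fold higher in 6 classes, and its interval lay above 1 in 11. In IFE basal-like cells, the proliferative layer of the epidermis, it had 149 CPM in control and 470 CPM in TP, a ratio of 3.15 (2.95 to 3.36), where 1.55% of tested genes were at least 2-fold higher. Among the 3 clusters of that class the ratio was 4.22 in cluster 9, 1.57 in cluster 12 and 2.31 in cluster 20. In IFE suprabasal-like cells the levels were 149 CPM and 351 CPM, a ratio of 2.36 (2.20 to 2.53), with 1.7% of genes at least 2-fold higher. Upper hair follicle-like cells had 103 CPM and 238 CPM, and inner root sheath-like cells, which mould the growing hair, had 87.4 CPM and 206 CPM. The ratios of these were 2.32 and 2.36, against 1.53% and 4.88% of genes. In inner root sheath-like cells the 10 IFE suprabasal markers also went from 3257 CPM in control to 17168 CPM in TP, and their part in the Dnajb1 ratio was not tested. In dermal papilla-like cells Dnajb1 had 65.7 CPM and 164 CPM, a ratio of 2.49 (2.27 to 2.74), where 3.35% of genes were at least 2-fold higher. Not every class followed. The interval held 1 in 4 classes. In dermal fibroblast-like cells the ratio was 1.15 (0.821 to 1.67) and in dermal sheath cup-like cells 1.04 (0.834 to 1.30). In endothelial-like cells it was 0.892 (0.612 to 1.32) and in smooth muscle and pericyte-like cells 0.612 (0.360 to 1.07). The ratio of myeloid-like cells, 4.53 (1.5 to 22.3), rests on 3 control UMIs and came to 1.04 with coarser clusters. With cells thinned to 1000 UMIs the ratio fell short of 2 in 3 of the 6 classes, at 1.85 in IFE suprabasal-like, 1.79 in dermal papilla-like and 1.87 in myeloid-like cells.

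Hspb1 was at least 2-fold higher in 2 classes, both of the hair follicle. Inner root sheath-like cells had 474 CPM in control and 1533 CPM in TP, a ratio of 3.23 (3.15 to 3.32), and hair cortex-like cells, the fibre-forming cells, had 484 CPM and 1438 CPM, a ratio of 2.97 (2.86 to 3.09), where 2.76% of tested genes were at least 2-fold higher. The ratio was above 2 in each of the 3 inner root sheath-like clusters, with 2.01 in cluster 1, 2.08 in cluster 7 and 3.92 in cluster 22. Among the hair cortex-like clusters it was 1.17 in cluster 3, 2.13 in cluster 19 and 2.92 in cluster 24, whose leading genes are hair keratins such as Krt31 and whose levels were 1472 CPM and 4302 CPM. Cluster 3 held 2898 of 4138 control and 287 of 575 TP hair cortex-like cells, and cluster 24 held 472 and 110. Cluster 22 held 389 of 6187 control and 269 of 1111 TP inner root sheath-like cells. The class ratios thus also hold shifts between clusters, whose part was not tested. Markers of IFE suprabasal cells moved with these ratios. Their 10 genes summed to 3257 CPM in control and 17168 CPM in TP in inner root sheath-like cells and to 2311 CPM and 6081 CPM in hair cortex-like cells, with 10 of 10 higher in TP in both and none at 0. Their part in the Hspb1 result was not tested. Suprabasal-like cells themselves had 4039 CPM and 5991 CPM, a ratio of 1.48 (1.46 to 1.5), while the basal-like cells had 1237 CPM and 1261 CPM, a ratio of 1.02 (0.993 to 1.05). Endothelial-like cells went the other way, from 2285 CPM in control to 1621 CPM in TP, a ratio of 0.709 (0.648 to 0.777).

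Hspa1a was lower beyond counting error in 9 classes, with its lowest ratios in dermal papilla-like and IFE basal-like cells. In dermal papilla-like cells it had 365 CPM in control and 187 CPM in TP, a ratio of 0.512 (0.479 to 0.546). The ratio was 0.507 in cluster 8 and 0.590 in cluster 15. Inner root sheath markers went from 2224 to 461 CPM in papilla-like cells and from 2555 to 752 CPM in IFE basal-like cells, and IFE suprabasal markers from 2030 to 3653 CPM and from 3177 to 6045 CPM. In IFE basal-like cells it had 206 CPM and 107 CPM, a ratio of 0.517 (0.481 to 0.556), and it was lower in each of the 3 clusters, at 0.566, 0.438 and 0.489. The same IFE basal-like cells had the highest class level of Dnajb1 in TP, so the chaperone and its co-chaperone had opposite ratios there. Intervals for 5 classes held 1, and the interval lay above 1 in myeloid-like cells alone, with 270 CPM in control and 600 CPM in TP, a ratio of 2.22 (1.65 to 3.06), where 8.77% of tested genes were at least 2-fold higher, and of 1.84 in thinned cells. That class held 58 control cells and 229 TP cells. Its own 11 markers went from 8905 CPM in control to 20716 CPM in TP. There inner root sheath markers went from 2279 to 430 CPM and IFE suprabasal markers from 7718 to 4513 CPM, and their part in the ratio was not tested. Hspa1b followed Hspa1a in dermal papilla-like cells, with a ratio of 0.574 (0.531 to 0.619), and in dermal sheath cup-like cells, with 0.627 (0.550 to 0.715). It did not follow in myeloid-like cells, where its ratio was 1.09 (0.771 to 1.59).

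Melanocyte-like cells, the pigment cells of the follicle, had higher TP levels of several members, including those that unstressed cells also use. Dnajb1 had a ratio of 1.55 (1.11 to 2.17), Hspa1a 1.24 (0.955 to 1.60) and Hspa1b 1.26 (0.926 to 1.72). Summed levels of other chaperones had ratios of 1.40 for the cytosolic list and 1.40 for the cytosolic chaperonin and prefoldin. They were 1.67 for the endoplasmic reticulum list and 0.956 for the mitochondrial list. Hspa8 had 527 CPM in control and 1106 CPM in TP, a ratio of 2.10 (1.91 to 2.31), where 4.34% of tested genes were at least 2-fold higher. Its highest class ratio was in myeloid-like cells, at 2.15, and 1.75 at the lowest of the other settings. There 4 of 10 members were at least 2-fold higher against 8.77% of tested genes, with Dnajb1 resting on 3 control UMIs. In melanocyte-like cells Hsp90aa1 had 476 CPM and 928 CPM, a ratio of 1.95 (1.76 to 2.16). The mitochondrial pair was higher there as well, with ratios of 1.88 (1.61 to 2.19) for Hspe1 and 1.54 (1.36 to 1.74) for Hspd1, their highest in any named class. In the same cells inner root sheath markers went from 3289 to 372 CPM, germinative layer markers from 688 to 277 CPM and IFE suprabasal markers from 3022 to 5506 CPM. Outer bulge-like cells, which include the resting stem cells of the follicle, had ratios of 1.59 (1.48 to 1.71) for Hsp90aa1 and 1.37 (1.23 to 1.52) for Hspe1. The opposite was found in endothelial-like cells, with 270 CPM of Hspe1 in control and 103 CPM in TP, a ratio of 0.383 (0.280 to 0.523), the only pair of a member and a class at least 2-fold lower, where 3.31% of tested genes were so. Among markers of other cells there, those of the inner root sheath summed to 3482 CPM in control and 614 CPM in TP, with none of 10 higher, the 9 smooth muscle and pericyte markers to 830 and 245 CPM, and the 10 IFE suprabasal markers to 2499 and 6592 CPM. In dermal fibroblast-like cells Hspd1 had 225 CPM and 128 CPM, a ratio of 0.570 (0.470 to 0.695), where inner root sheath markers summed to 2341 CPM in control and 346 CPM in TP and germinative layer markers to 538 and 219 CPM. The endothelial-like class held 127 control cells and 221 TP cells. The differences between classes in these ratios were not tested.

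The share of cells with at least 1 UMI was compared after thinning each cell to 1000 UMIs, which left 33714 control cells and 17694 TP cells. Dnajb1 was found in 9.01% of control cells and 17.7% of TP cells, Hspb1 in 35.6% and 52.2%, Hspa5 in 30.4% and 40.4%, and Hspa8 in 39.9% and 43.4%. These 4 were the members with a higher share in TP, and how many of all genes had a higher share was not measured. The shares of Hspa1a were 19.7% and 13.5%, those of Hsph1 were 11.1% and 8.18%, and those of Hspd1 were 33.0% and 22.0%. Without thinning all 10 shares were higher in the deeper TP library, for example 34.9% and 45.1% for Hspa1a, 18.9% and 48.9% for Dnajb1, 54.5% and 85.0% for Hspb1 and 51.4% and 75.8% for Hspa5. No skin cell class is known to lack these genes, so the level of free RNA could not be read from a class without them. Among cells of a cluster after thinning, Hspb1 had the highest variance over the mean of the members, 1.87 in control and 2.60 in TP. This measure can rise with the level of a gene and was not corrected for it, so it does not rank the members by unevenness. Hspa5 went from 1.29 to 1.90 and Dnajb1 from 1.24 to 1.62 on the same measure.

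Within clusters, UMIs of 2 members occurred in the same cell more often than their shares alone would give for 44 of 45 pairs in control and 40 in TP, but the interval held 1 for 12 and 16 of the 45, and pairs of other genes were not measured. In control, thinned cells with UMIs of both Hspa1a and Hspa1b were 1.49 times the number expected from their shares in each cluster, and those with Hsph1 and Dnajb1 were 1.47 times. The 6 pairs among Hspa1a, Hspa1b, Hsph1 and Dnajb1 were the first 6 of all 45 member pairs in control, from 1.38 to 1.49, and also the first 6 in TP, from 1.17 to 1.46. Hspe1 and Hspd1, which share the 3 units in a row, had 1.04 (1.00 to 1.08) in control and 1.12 (1.05 to 1.20) in TP. Across the 15 classes, levels of Hspe1 and Hspd1 had a Spearman correlation of 0.736 in control and 0.918 in TP, and those of Hspa1a and Hspa1b one of 0.875 and 0.796. Hsph1 and Hspe1 had 0.825 and 0.318, and Hsp90aa1 and Hspe1 had 0.8 and 0.679. These are descriptions over classes of 1 library each, which share depth and free RNA.

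Over the 30 class levels of both libraries, the genes with the pattern most like Hspa1a among 11663 genes with at least 1000 UMIs were Hspa1b, with a Pearson correlation of 0.757, Pip5k1c with 0.673 and Pfkfb4 with 0.669. For Hspb1 they were Crip2 with 0.837, Jup, a plaque protein of desmosomes, with 0.801, and Ywhaz with 0.797. The mitochondrial chaperonin gene Hspd1 was closest to Rsl1d1 with 0.975, Npm1 with 0.947 and Sae1 with 0.937. For Hspa5 they were Manf with 0.878, Ppib with 0.852 and Hsp90b1 with 0.844, all of which encode proteins of the endoplasmic reticulum.

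Depth was not the same in both libraries, and several member ratios moved with it. Classes differed in depth too, with control medians of 7195 UMIs in IFE suprabasal-like cells and 2031 in inner root sheath-like cells. The TP medians of these classes were 15095 and 4986 UMIs. Cells picked by depth can therefore also differ in their mix of classes. The part of that mix in the shifts of ratios over all cells was not tested. Among cells of 1000 to 2000 UMIs the Dnajb1 ratio was 1.5, and among those of 4000 to 8000 UMIs it was 2.92. The Hspa5 ratio was 1.29 and 1.73 in the same bins. Both genes were higher in TP in every depth bin. In IFE basal-like cells the Dnajb1 ratio was 1.16 (0.942 to 1.42) in cells of 1000 to 2000 UMIs, 1.93 in those of 2000 to 4000 and 3.03 in those of 4000 to 8000, so its difference was within counting error in the shallowest. For Hspb1 the ratio over all cells was 2.31 under 1000 UMIs, 1.59 at 1000 to 2000 and 1.48 at 4000 to 8000. The mitochondrial pair had ratios of 0.431 for Hspd1 and 0.470 for Hspe1 in cells of 1000 to 2000 UMIs, and 1.02 and 0.971 in cells of 8000 and over.

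**Figure D4:**
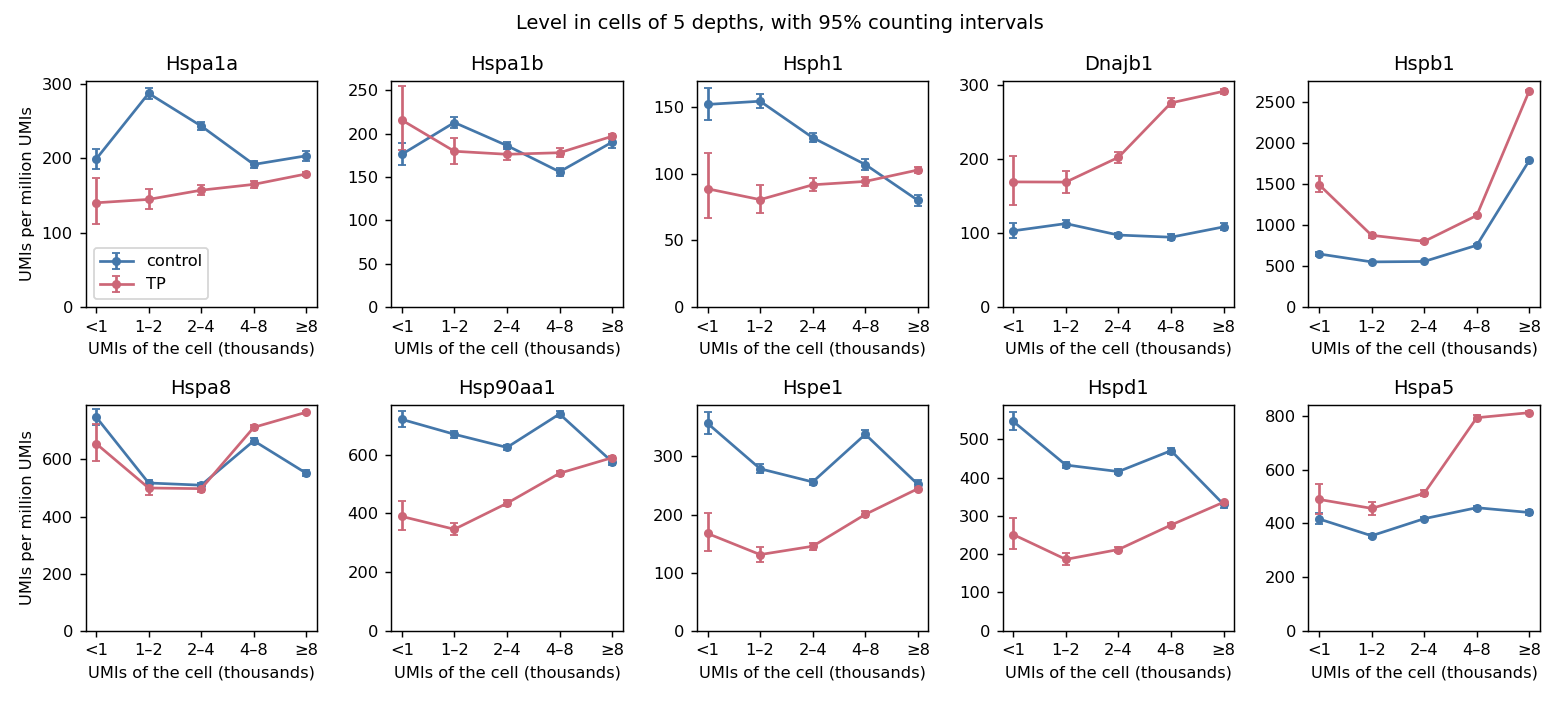
Level of each chaperone gene in UMIs per 1000000 UMIs among kept cells of 5 depths (under 1000, 1000 to 2000, 2000 to 4000, 4000 to 8000, and 8000 UMIs and over); blue is control, red is TP, and bars are 95% counting intervals. Dnajb1, Hspb1 and Hspa5 are higher in TP at every depth, while Hspe1, Hspd1 and Hsp90aa1 are lower in TP in shallow cells and close to control in the deepest.

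The mitochondrial share of a cell, a common sign of damaged cells, also moved with the members. Within TP, Dnajb1 had 347 CPM in cells of 0 to 2.5% mitochondrial UMIs, 234 CPM at 2.5 to 5% and 178 CPM at 5 to 10%. In control its levels in the same bins were 106, 99.7 and 99.8 CPM, so the ratio went from 3.27 to 2.35 and 1.79. Hspb1 had ratios of 2.57, 2.29 and 1.76 in these bins, Hspa5 1.82, 1.64 and 1.44, and Hspa1a 0.846, 0.737 and 0.600. The ratios of Dnajb1, Hspb1 and Hspa5 were thus highest in the bin with the least mitochondrial RNA. With a limit of 5% for all cells Hspb1 had 2.52, within the interval of its ratio as measured, and the part of RNA quality in these ratios was not tested.

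Other chaperone genes were read from fixed lists that hold none of the members. Of 33 other cytosolic chaperones and co-chaperones 32 were tested, and 3 were at least 2-fold higher in TP, none lower, with a median log2 ratio of 0.08 against -0.24 for all genes. The 3 of 32 stand against 7.89% of all tested genes, and 1 of them, named after its value was seen, was Serpinh1 with 2.31, whose product is a collagen chaperone of the endoplasmic reticulum and not of the cytosol. Their highest ratios were those of the small heat shock proteins Cryab, with 2.63, and Hspb2, with 2.43, both below 10 CPM in either library, and their lowest were Hspa2 with 0.649 and Hsf1, the gene of heat shock factor itself, with 0.680. Hsf1 had 33.1 CPM in control and 22.5 CPM in TP. None of the 14 genes of the cytosolic chaperonin TRiC and of prefoldin was past 2-fold, with a median of -0.11, and the ratios named by rule were 1.24 for Pfdn5, 1.09 for Pfdn2, 0.748 for Cct2 and 0.868 for Cct6a. None of the 12 mitochondrial chaperones and proteases was past 2-fold either, with a median of -0.35 and 3 of 12 above 1. Among them Dnlz had 1.08, Grpel1 1.06, Trap1 0.665 and Clpp 0.686. The list median, like Hspe1 and Hspd1, lay below the median of all genes. With control's class shares it was -0.17 against -0.10 for all genes, while both members, with ratios of 0.95, were above the latter.

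Among 23 other genes of the endoplasmic reticulum and its unfolded protein response, 17 had a ratio above 1, against 34.3% of all tested genes, and 2 were at least 2-fold higher, against 7.89%, with a median log2 ratio of 0.28. Herpud1, which serves the removal of misfolded proteins, had 23.7 CPM in control and 61.6 CPM in TP, a ratio of 2.60 (2.48 to 2.71), and Sdf2l1, a partner of Hspa5, had 10.9 and 22.9 CPM, a ratio of 2.10 (1.96 to 2.25). The lowest were Sil1, a nucleotide exchange factor of Hspa5, with 0.549, and the sensor Atf6 with 0.883. With control's class shares none of the genes in the cytosolic and endoplasmic reticulum lists was at least 2-fold higher, where the share of all genes was 3.39%. Immediate-early genes, which cells switch on soon after a stimulus or handling, were followed beside the chaperones. Past 2-fold, 18 of 22 of these were higher in TP and none was lower, with a median log2 ratio of 1.58, from Fosl1 with 14.2 and Klf2 with 5.21 to Myc with 1.12 and Egr3 with 1.07. Their summed level was 5.49 times as high in TP in dermal papilla-like cells, where Dnajb1 had 2.49, and 1.63 times in IFE basal-like cells, where Dnajb1 had its ratio of 3.15. Their part in the chaperone differences was not tested.

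**Figure D5:**
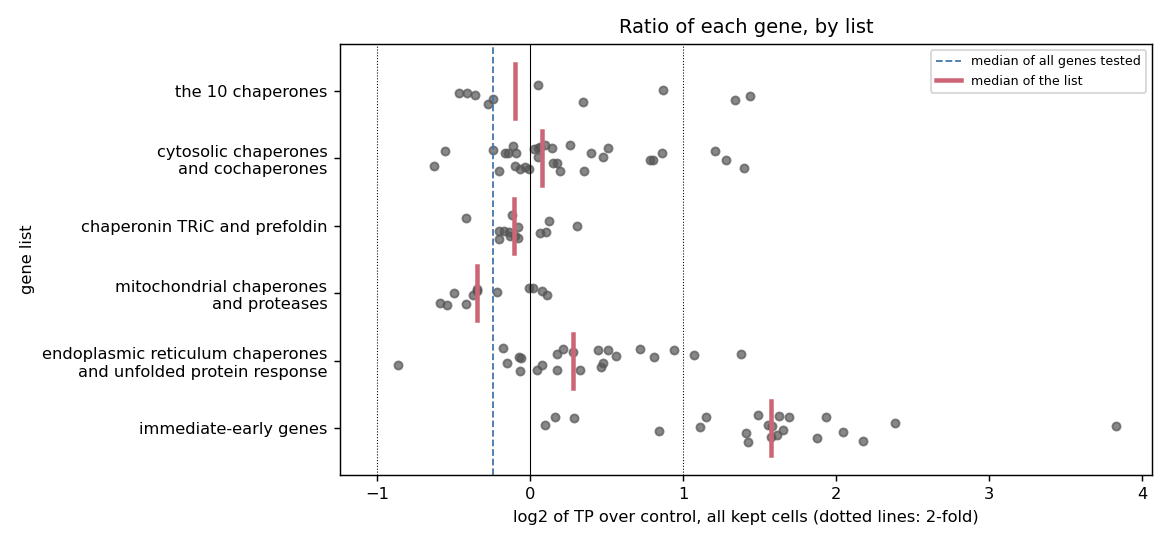
Log2 of TP over control over all kept cells for each tested gene (grey points) of the 10 chaperones and of 5 lists; red bars are list medians, the dashed blue line is the median of all tested genes at -0.24, and dotted lines mark 2-fold. Immediate-early genes lie to the right of 0 throughout, the mitochondrial list has a median of -0.35, and the 10 chaperones spread from Hspd1 at 0.724 to Dnajb1 at 2.71 when read as ratios.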

How the data were processed

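The authors made libraries from pooled skin, ran Cell Ranger 8.0.1 on mm10 (per the labels and the submitters' processing notes) and deposited counts, whole UMI counts per gene and barcode without normalization and before their own filters. No columns of other samples were present (0). Here, barcodes with 200 to 8000 genes and at most 10% mitochondrial UMIs were kept. To remove doublets, the DoubletFinder procedure was written anew (25% artificial doublets, the nearest 1% of the merged data), and the 7.5% of highest score left each library (3168 control and 1503 TP barcodes).

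Seurat 5.3.0 (SeuratObject 5.2.0, R 4.3.3) gave 2000 variable genes, reciprocal PCA integration, 30 components and Louvain clusters at resolution 1. Members, the other chaperone lists and immediate-early genes were kept out of the clustering features. Clusters were named for the class of highest marker score where that reached 0.8 and at least 3 markers were detected. They stayed unnamed where another class had more markers among the 10 leading genes. Clusters of low depth with no own marker there also stayed unnamed. Cluster 2, with a score of 0.825 for companion layer and medulla, was unnamed for the first reason. Its 1628 control and 2109 TP cells, led by Krt16 and Krt1, are outside the IFE suprabasal-like class. The score of 0.8 was set after the clusters had been seen. Python 3.11.15, numpy 2.4.6, scipy 1.17.1, pandas 2.3.3 and scikit-learn 1.9.0 were used for the rest, and edgeR 4.0.16 gave TMM factors only.

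UMIs were summed per library and class, since cells are not replicates. Levels have exact Poisson intervals, ratios exact conditional binomial intervals and shares Clopper-Pearson intervals, at 95%, and all cover counting error only. A gene was counted as 2-fold higher or lower from CPM with 0.5 UMI added, where both libraries together held 50 or more UMIs of it. The interval and call steps were tested on simulated data. No p-value was computed. For equal class shares, CPM per cluster were averaged with the UMI shares of 1 library. Thinning drew 1000 UMIs per cell and left out 5362 control and 848 TP cells. All 10 members are named, and from each other list the 2 highest and 2 lowest ratios among genes with at least 200 UMIs. For Hspa1a, Hspb1, Hspd1 and Hspa5 the 3 most similar genes are named. Members and lists were chosen with earlier results of these data known. Alternatives covered scaling, the mitochondrial limit, doublets, thinning, the mean of ln(counts per 10000 + 1), class shares, named classes only, resolution 0.5, a 1.5-fold limit and no UMI minimum, and cells of 2000 to 5000 UMIs were added after seeing the data. Gene positions and promoters are from RefSeq on GRCm38.p6, and transcript ends were compared in a later GENCODE transcript set.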

Additional observations from a re-analysis of the deposited data

Results flagged for a closer look

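For 5 members TP was at least 1.5-fold higher in 1 class and at least 1.5-fold lower in another, with both counting intervals clear of 1. The share of all genes that do so was not measured, so this count says nothing particular about the members. Hspa1a had 2.22 in myeloid-like cells and 0.512 in dermal papilla-like cells. Hsph1 had 1.52 in lymphocyte-like cells and 0.565 in endothelial-like cells. Myeloid markers in the lymphocyte-like class went from 4377 CPM in control to 14094 CPM in TP, 11 of 11 higher, and lymphocyte markers from 4058 to 2256 CPM. Hspb1 had 3.23 in inner root sheath-like cells and 0.563 in myeloid-like cells, where cells thinned to 1000 UMIs gave 1.21 and markers of IFE suprabasal cells summed to 7718 CPM in control and 4513 CPM in TP, 0 of 10 higher. The part of these markers in both results was not tested. Hspe1 had 1.88 in melanocyte-like cells and 0.383 in endothelial-like cells, and Hspd1 had 1.54 in melanocyte-like cells and 0.570 in dermal fibroblast-like cells. Each class is 1 pooled library per group, and these differences between classes were not tested.

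Barcodes removed for more than 10% mitochondrial UMIs, 3465 in control and 5844 in TP, were outside the comparisons above. Among them Dnajb1 had 74.6 CPM in control and 126 CPM in TP, a ratio of 1.70 (1.51 to 1.91). Hspb1 had 652 and 914 CPM, a ratio of 1.4 (1.35 to 1.46), and Hspa5 had 327 and 388 CPM, a ratio of 1.19 (1.12 to 1.26). These 3 ratios were on the same side of 1 as in kept cells and smaller. Hspa8 was not, with 0.792 (0.753 to 0.833), nor was Hspa1b, with 0.954 (0.875 to 1.04).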

How the results depend on the processing

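Of 110 alternative values of the member ratios over all kept cells, 101 lay on the same side of 1 as the value reported and 9 did not. Hspa1b was 0.971 in cells of 2000 to 5000 UMIs, 0.941 with cells thinned to 1000 UMIs, 0.970 with control's class shares and 0.999 with those of TP. Hsph1 was 1.08 with control's class shares and 1.14 with those of TP, and its mean of ln(counts per 10000 + 1) was higher in TP by 0.017. Hsp90aa1 was 1.01 with the TMM factor and 1.02 with TP class shares. Dnajb1 ranged from 2.11 to 3.25, Hspb1 from 1.36 to 3.03, Hspa5 from 1.35 to 2.19, Hspa8 from 1.03 to 1.52, Hsp90aa1 from 0.720 to 1.02, Hspa1a from 0.630 to 0.899, Hspe1 from 0.578 to 0.974 and Hspd1 from 0.547 to 0.979. The cause of these shifts was not tested.

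Member and class pairs at least 2-fold higher in TP went from 16 to 26 with TMM factors within the class, and pairs at least 2-fold lower went from 1 to 6 with thinned cells and to 2 at resolution 0.5. For the 17 pairs past 2-fold, all 67 alternative ratios stayed on the same side of 1, but 8 of the 16 higher pairs fell short of 2-fold with thinned cells. Members with a higher share of cells in TP went from 4 to 10 with no thinning. Cytosolic chaperones at least 2-fold higher went from 3 to 6 with the TMM factor and to 0 with control's class shares, and endoplasmic reticulum genes from 2 to 4 and to 0. No paired analysis was possible because each group is 1 library. With 1 pool of 15 mice per group, the effects of animal, dissociation, library and treatment cannot be told apart. Low counts limit the smaller classes, such as the 3 control UMIs of Dnajb1 in myeloid-like cells.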

Other observations

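Barcodes called as doublets, 3168 in control and 1503 in TP, had Dnajb1 at 108 CPM in control and 242 CPM in TP, a ratio of 2.25 (2.14 to 2.38), and Hspb1 at 749 and 2166 CPM, a ratio of 2.89 (2.84 to 2.95). The most UMIs of Hspb1 in a single kept cell were 237 in control and 789 in TP, and the top 1% of cells held 26.9% and 21.0% of its UMIs.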
